A study of Mus musculus with 12 samples.

Results

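The subunits of the BAF chromatin remodelling complex, including the neuronal form of the complex, were followed probe by probe in the hippocampus and the cortex of 3xTgAD mice given amitriptyline (AMI). The set holds 9 genes, Actl6b, Actl6a, Smarca2, Smarca4, Smarcb1, Smarcc1, Smarcc2, Smarce1 and Arid1a, and all 15 probes that carry these symbols, of 25697 probes and 18097 gene symbols on the array. The set was selected on results of these same arrays, because the Actl6b probes had risen by different amounts in the hippocampus after AMI. The hippocampal differences between AMI and vehicle are therefore given below as a description, with no test.

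The mice were male 3xTgAD mice, a model of Alzheimer's disease that carries mutant human APP and tau transgenes under a neuronal Thy1 promoter together with a mutant presenilin 1 gene. One group drank water with AMI-hydrochloride, a tricyclic antidepressant, at 100 µg/g body weight for 4 months, from 14 months to 18 months of age, and the vehicle group drank water alone. Both groups had also been injected with BrdU, a label of dividing cells, and all carried the disease genes, so no array held healthy tissue. Each treatment and tissue had 3 Illumina MouseRef-8 arrays, 12 in all, but the sources do not say which mouse gave which array, and p-values then measure only the spread between these samples.

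BAF complexes use the energy of ATP to slide or eject nucleosomes, and so set which promoters and enhancers are open. Each complex has an ATPase, Smarca4 or Smarca2, with an actin-related subunit and a scaffold of Smarcc1 and Smarcc2, and the canonical forms also hold Smarcb1 and Smarce1. When neural progenitors stop dividing, the actin-related subunit Actl6a is replaced by the neuronal Actl6b, an exchange that dendrite growth and long-term memory depend on.

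The array read 4 different stretches of the Actl6b messenger, whose probes are shown because their hippocampal values differed. They are given 5′ to 3′ as in the array annotation and in the order of their start in the transcript, at bases 107, 394, 1267 and 1380.
Actl6b ILMN_1237413: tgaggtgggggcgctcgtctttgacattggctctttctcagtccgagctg
Actl6b ILMN_2707416: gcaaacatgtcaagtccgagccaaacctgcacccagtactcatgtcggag
Actl6b ILMN_2985428: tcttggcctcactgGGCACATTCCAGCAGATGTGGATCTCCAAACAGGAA
Actl6b ILMN_2696182: aatacccgtccaccccatccacggagaaac
The capitals in ILMN_2985428 mark the 36 bases that the annotation places in a second block of the genome, chr5:138010534-138010569, after 14 bases at chr5:138008558-138008571, both on the plus strand, so this probe spans a splice junction. Of ILMN_2696182, which starts 113 bases further 3′, the first 30 of 50 bases are shown. For the other 3 Actl6b probes the annotation gives the band 5qG2 and no coordinates, and it does not name its genome build. None of the 4 probes shares bases with another.

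Signals are given as log2 signal relative to the mean of the array, after each array was scaled to a common spread. A probe counts as detected on an array at a detection p of 0.05 or less, and was tested in a tissue when it was detected on at least 3 of its 6 arrays. By this rule 13 probes of 8 genes were tested in both tissues, each detected on all 12 arrays. The Arid1a probe ILMN_3128260 (an ARID-domain subunit that helps target the complex to DNA) and the Smarcc1 probe ILMN_1217302 were detected on no array, with raw signals of 54.9 to 92.8 and of 60.0 to 84.4, and give no level for these messengers. Between 12809 and 13280 probes were detected per hippocampal array and between 12588 and 13046 per cortical array, and the median residual SD between replicates was 0.146 in hippocampus and 0.133 in cortex. The hippocampal arrays of replicate 1 of both treatments had a smaller spread of log2 signals, with SDs of 1.51 and 1.53 against 1.71 to 1.85 on the other 4.

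The tissue labels fitted most of the regional markers. Dentate markers C1ql2, Prox1 and Dsp were all higher in the hippocampal arrays, and 5 of 6 tested probes of cortical markers were higher in the cortical arrays, led by Tbr1. The remaining one, Fezf2, was 0.81 higher in hippocampus. Of 4 probes for neuronal markers that were listed at first, 1 (Syt1) was detected by this rule, so 8 further neuronal genes were added after their detection was seen, and all 9 of their probes were detected on every array. In bulk tissue, fewer cells of a type and less messenger per cell cannot be told apart.

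Actl6b, the neuron-specific actin-related subunit, was higher after AMI at all 4 probes in the hippocampus, by amounts between 0.20 and 0.66. At ILMN_2696182, the most 3′ of the 4, the AMI arrays read 2.78, 2.90 and 2.88 and the vehicle arrays 2.53, 1.93 and 2.12. Every AMI array lay above every vehicle array. On this scale the AMI arrays lay within 0.12 of each other while the vehicle arrays ranged over 0.60. These ranges depend on the scaling. The raw signals were 593, 1500 and 1170 after AMI and 598, 609 and 657 after vehicle. AMI array 1 had the lowest median signal over all probes, 63.7 against 73.5 to 94.2 on the other hippocampal arrays, and the smallest spread of log2 signals. The scaled difference between the groups was 0.66 (SE 0.15, n = 3 against 3), a 1.58-fold higher signal. Between same-numbered arrays the differences were 0.25, 0.97 and 0.75, so the excess was smallest in the pair of replicate 1. Whether equal numbers mark paired samples is not settled.

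At ILMN_2707416 the hippocampal AMI arrays read 0.16, 0.56 and 0.57 and the vehicle arrays 0.04, 0.10 and 0.16. The AMI arrays 2 and 3 stood above all vehicle arrays, and AMI array 1 fell among them. The difference was 0.33 (SE 0.13), 1.25-fold. The splice-junction probe ILMN_2985428 read 1.54, 1.86 and 2.03 after AMI and 1.43, 1.45 and 1.67 after vehicle, again with AMI array 1 inside the range of the vehicle arrays. Its difference was 0.29 (SE 0.14), 1.22-fold. The most 5′ probe, ILMN_1237413, read -0.64, -0.26 and -0.02 after AMI and -0.51, -0.44 and -0.57 after vehicle. Here AMI array 1 was the lowest of all 6, and the difference of 0.20 (SE 0.15) was about the size of its error. AMI array 1 was thus the lowest AMI array at all 4 probes, and lay above the vehicle arrays at ILMN_2696182 alone. Against the vehicle array of the same number, AMI was higher in all 3 pairs at ILMN_2707416 (0.12, 0.46 and 0.41) and at ILMN_2985428 (0.10, 0.41 and 0.36), and in 2 of 3 pairs at ILMN_1237413 (-0.13, 0.18 and 0.55). The pair of replicate 1 had the smallest difference at every probe. Leaving out each hippocampal array in turn, the difference ran from 0.05 to 0.37 at ILMN_1237413, from 0.25 to 0.47 at ILMN_2707416 and from 0.18 to 0.44 at ILMN_2985428.

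**Figure D1:**
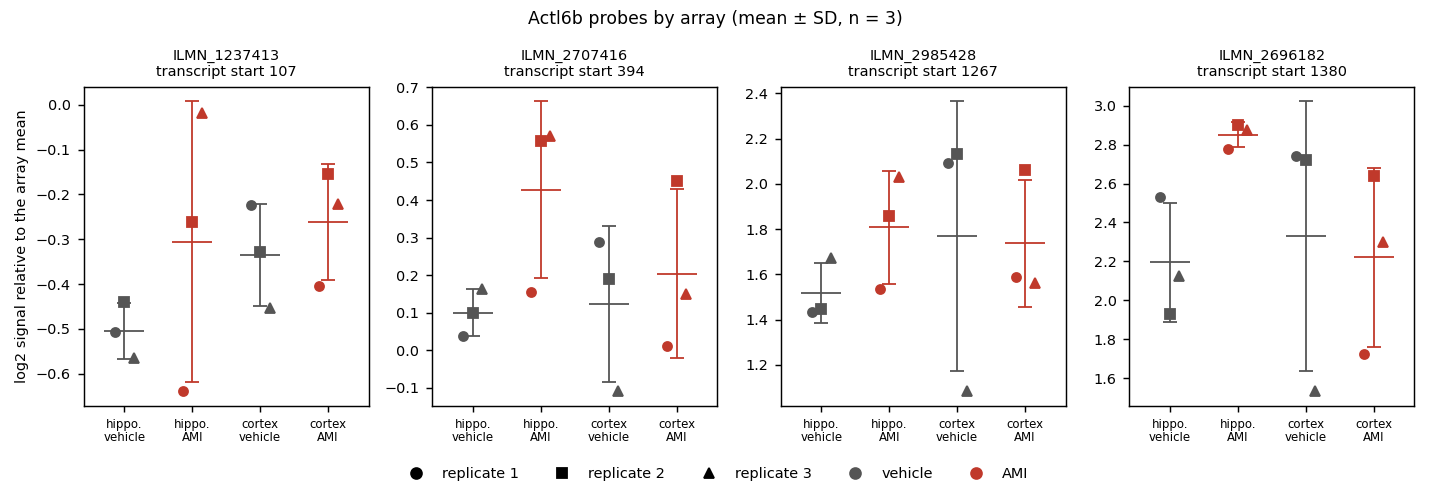
Each panel plots one Actl6b probe as log2 signal relative to the array mean (vertical axis) in the 4 groups of 3 arrays, with symbols for the replicate number, a horizontal line for the mean and bars for the SD. At ILMN_2696182 all hippocampal AMI arrays lie above all hippocampal vehicle arrays, at the other 3 probes AMI array 1 lies within or below the vehicle arrays, and in the cortex the groups overlap at every probe.

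The deviations of the arrays from their group means are given as a description over 6 arrays with shared scaling. Within the hippocampus ILMN_1237413, ILMN_2707416 and ILMN_2985428 deviated together, with Pearson r of 0.79 to 0.92, while ILMN_2696182 had r of 0.03 to 0.10 with these 3. These r hold for the scaled signals only. In raw signal, AMI array 1 was the lowest hippocampal array at all 4 probes, at 71.6, 117, 275 and 593 in 5′ to 3′ order. Whether ILMN_2696182 stands apart from the other probes under another normalization was not tested. Within the cortex all 4 probes deviated together, with r of 0.74 to 0.93.

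Actl6a, the actin-related subunit of progenitors and most other cells, read 0.26, 0.33 and 0.26 after AMI and 0.37, 0.18 and 0.04 after vehicle in the hippocampus, a difference of 0.09 (SE 0.11) with overlapping arrays. The ATPase Smarca4 differed by -0.13 (SE 0.13) there, and its alternative Smarca2 by 0.18 (SE 0.16) at ILMN_3075712 and by -0.06 (SE 0.19) at ILMN_3154810. The core subunit Smarcb1 differed by -0.09 (SE 0.11), the scaffold subunits Smarcc1 by 0.08 (SE 0.11) and Smarcc2 by -0.01 (SE 0.11), and Smarce1, which carries an HMG domain that binds DNA, by 0.09 (SE 0.13) and 0.06 (SE 0.11). Each of these differences was close to its own SE or smaller.

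In all, 9 of the 13 detected probes were higher and 4 lower after AMI in the hippocampus, with a median difference of 0.09 against 0.01 over all 13163 probes tested. In 1 of the 13, ILMN_2696182, the groups did not overlap with AMI higher, as in 4.38% of all probes. No probe of the array reached an adjusted p under 0.05 in this comparison by limma, where 309 had an unadjusted p of 0.05 or less (1063 with the replicate number as a block) and the smallest adjusted p was 0.715. Most oligodendrocyte probes were lower after AMI in the hippocampus, which was not tested: 1 of 11 probes, of 5 genes, was higher, and the median difference was -0.35. Their mean level was 2.63 to 2.96 in the AMI arrays and 2.85 to 3.31 in the vehicle arrays, so the groups overlapped. At replicate 3 the AMI array was the higher one, at 2.96 against 2.85. The mean of the 2 tested choroid plexus probes, Ttr and Kl, was 1.88 to 2.52 after AMI and 2.26, 2.62 and 5.45 after vehicle, where array 3 stood apart. The added neuronal probes were 5.17 to 5.71 after AMI and 5.28 to 5.54 after vehicle, with 4 of 9 higher. The part of these cell types in the Actl6b values was not tested. Leaving out each hippocampal array in turn, the difference at ILMN_2696182 was 0.52 to 0.84.

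**Figure D2:**
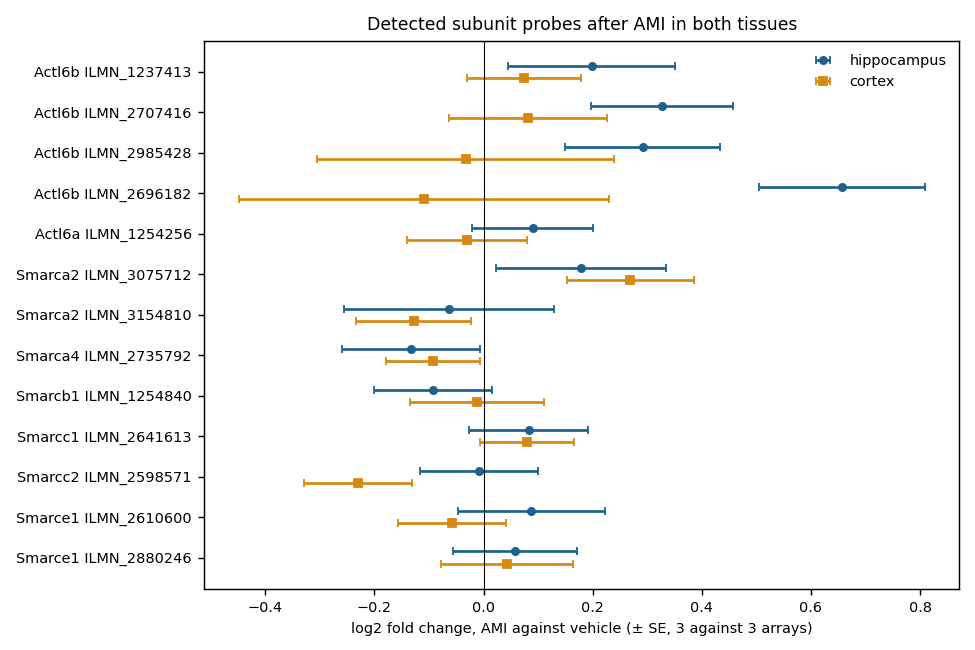
Log2 fold changes of AMI against vehicle (horizontal axis) for the 13 detected probes, with hippocampal values as circles, cortical values as squares and bars of 1 SE, 3 against 3 arrays. The hippocampal circle of Actl6b ILMN_2696182, at 0.66, lies furthest from 0, and the cortical values run from -0.23 at Smarcc2 to 0.27 at Smarca2 ILMN_3075712.

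The cortical comparison was not used to choose the set, although the same mice may have given both tissues. Here no member reached an adjusted p under 0.05 by limma, nor did any of the 12944 probes tested (0%). The smallest adjusted p was 0.781 among the members and 0.153 over the array, where 813 probes had an unadjusted p of 0.05 or less. Of the 13 members, 5 were higher and 8 lower after AMI, with a median of -0.03 against 0.02 for all probes.

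Actl6b was not called at any probe in the cortex. At ILMN_2696182 the cortical AMI arrays read 1.72, 2.64 and 2.30 and the vehicle arrays 2.74, 2.72 and 1.53. The lowest array of each treatment, AMI array 1 and vehicle array 3, lay far below the others, and the groups overlapped fully. The difference was -0.11 (SE 0.34, 95% interval -0.88 to 0.66, adjusted p = 0.977 by limma), an interval that includes the hippocampal value. The splice-junction probe ILMN_2985428 read 1.59, 2.06 and 1.56 after AMI and 2.09, 2.13 and 1.08 after vehicle, with vehicle array 3 the lowest once more. Its difference was -0.03 (SE 0.27), and ILMN_1237413 and ILMN_2707416 differed by 0.07 (SE 0.10) and 0.08 (SE 0.14). The spread of ILMN_2696182 between cortical replicates, a residual SD of 0.588, was at percentile 99.5 of the probes tested, and that of ILMN_2985428, 0.465, at percentile 98.9. In the hippocampus the same probes lay at percentiles 79.9 and 73.7. Without vehicle array 3 the cortical difference at ILMN_2696182 was -0.52, and without AMI array 1 it was 0.14.

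The hippocampal difference at ILMN_2696182 exceeded the cortical one by 0.74 (SE 0.44) with all 12 arrays scaled together. It was 0.48 without cortical AMI array 1 and 1.17 without cortical vehicle array 3. Since the hippocampal side of this contrast chose the gene, it has no test here. At the other Actl6b probes the excess was 0.11 (SE 0.19), 0.22 (SE 0.21) and 0.31 (SE 0.36) in 5′ to 3′ order.

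Smarca2, one of the ATPases, was read by a pair of probes. ILMN_3075712, which the annotation marks as specific to an isoform and places at chr19:26790612-26790661, is shown because the pair gave different cortical values.
Smarca2 ILMN_3075712: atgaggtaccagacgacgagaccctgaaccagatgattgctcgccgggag
Its cortical AMI arrays read 0.50, 0.59 and 0.63 and the vehicle arrays 0.39, 0.07 and 0.45. The groups did not overlap, although the highest vehicle array came close to the lowest AMI array. The difference was 0.27 (SE 0.12), 1.21-fold, with an unadjusted p of 0.0481 and an adjusted p of 0.781 by limma. The other probe, ILMN_3154810, lies 1771 bases further 3′, is marked as common to all isoforms, and read 5.03, 4.82 and 5.17 after AMI and 5.11, 5.15 and 5.15 after vehicle. These arrays overlapped, and the difference was -0.13 (SE 0.11, adjusted p = 0.885 by limma), or 0.029 with median centring.

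Smarcc2, a scaffold subunit of the core, was lower after AMI in the cortex. Because the study lists Smarcc2 as changed in cortex on these arrays, its cortical value is a description as well. The AMI arrays read 2.36, 2.50 and 2.24 and the vehicle arrays 2.67, 2.60 and 2.53. Every AMI array lay below every vehicle array, with a narrow gap between 2.50 and 2.53. The difference was -0.23 (SE 0.10), a vehicle signal 1.17-fold that after AMI. Smarca4 was also lower in all cortical AMI arrays, at -0.01, 0.08 and 0.10 against 0.12, 0.21 and 0.11, but by -0.09 (SE 0.09, adjusted p = 0.903 by limma).

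Of the members, 1 of 13 was thus higher at an unadjusted p of 0.05 or less in the cortex, against 4.36% of all probes, and 1 of 13 was lower, against 1.92%. The lower one was Smarcc2, whose cortical value is a description, so this count is not an independent test. Groups that did not overlap were found at 3 of 13 members and at 12.2% of all probes. These unadjusted calls depended on single arrays and settings: leaving out each cortical array in turn gave 0 to 4 member probes, the 4 being without vehicle array 3, and the methods' t-test gave 0. The remaining members, Actl6a, Smarcb1, Smarcc1 and both Smarce1 probes, differed by -0.06 to 0.08 with overlapping groups. The 95% interval of Smarcb1 was -0.29 to 0.27 and that of Smarcc1 -0.12 to 0.28. Oligodendrocyte markers were higher after AMI at 6 of 11 probes in the cortex, with levels of 2.82 to 3.11 and 2.54 to 3.16, and the added neuronal markers at 1 of 9, with levels of 4.80 to 5.23 after AMI and 5.11 to 5.24 after vehicle. Their part in the values of the subunits was not tested.

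The other subunits of BAF-type complexes gave 34 probes of 17 genes, of which 23 probes of 13 genes were tested in each tissue. In the hippocampus 11 were higher and 12 lower after AMI and none had groups that did not overlap. Over all 13163 probes tested there, the groups did not overlap at 576 with AMI higher and at 463 with AMI lower. In the cortex 13 were higher and 10 lower, none had an adjusted p under 0.05, and 3 of 23 were higher at an unadjusted p of 0.05 or less, against 4.36% of all probes. The neuronal subunit Ss18l1 (also called CREST), a calcium-responsive coactivator that takes the place of Ss18 in neurons, made up 2 of these 3. Its probe ILMN_2726159 read 0.41, 0.14 and 0.15 in the cortical AMI arrays and -0.13, -0.55 and 0.04 in the vehicle arrays. ILMN_2726162, which shares 42 of its 50 bases with the former, read 0.12, 0.12 and 0.19 against -0.31, -0.58 and -0.02. At both probes the AMI arrays were the higher ones without overlap. The differences were 0.45 (SE 0.16, unadjusted p = 0.0201) and 0.45 (SE 0.14, unadjusted p = 0.0112), each with an adjusted p of 0.756 by limma. Without cortical vehicle array 2, the lowest at both, they were 0.28 and 0.31. The third Ss18l1 probe, ILMN_2991263, further 3′, read 1.01, 1.27 and 1.07 against 1.12, 1.25 and 1.28 and differed by -0.11 (SE 0.10), so the probes of Ss18l1 did not move one way. In the hippocampus ILMN_2991263 differed by 0.04 (SE 0.12) and ILMN_2726159 by -0.07 (SE 0.12).

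The third, Actb, which encodes the actin subunit of the complex and of the cytoskeleton, was 0.59 higher (SE 0.20, unadjusted p = 0.0166) at ILMN_2617433, with overlapping groups, while its other 4 probes differed by -0.81 to 0.05 in the cortex. Ss18, the partner that Ss18l1 replaces, differed by 0.04 and 0.09 at its detected probes. Dpf1, a PHD-finger subunit of neurons, differed by 0.00 and 0.05. Bcl11a and Bcl11b, zinc-finger subunits with roles in cortical neurons, differed by 0.11 and -0.20 in cortex and by -0.20 and 0.00 in hippocampus. The Dpf2 and Dpf3 probes were detected on no array, and no probe carried the symbol Phf10.

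**Figure D3:**
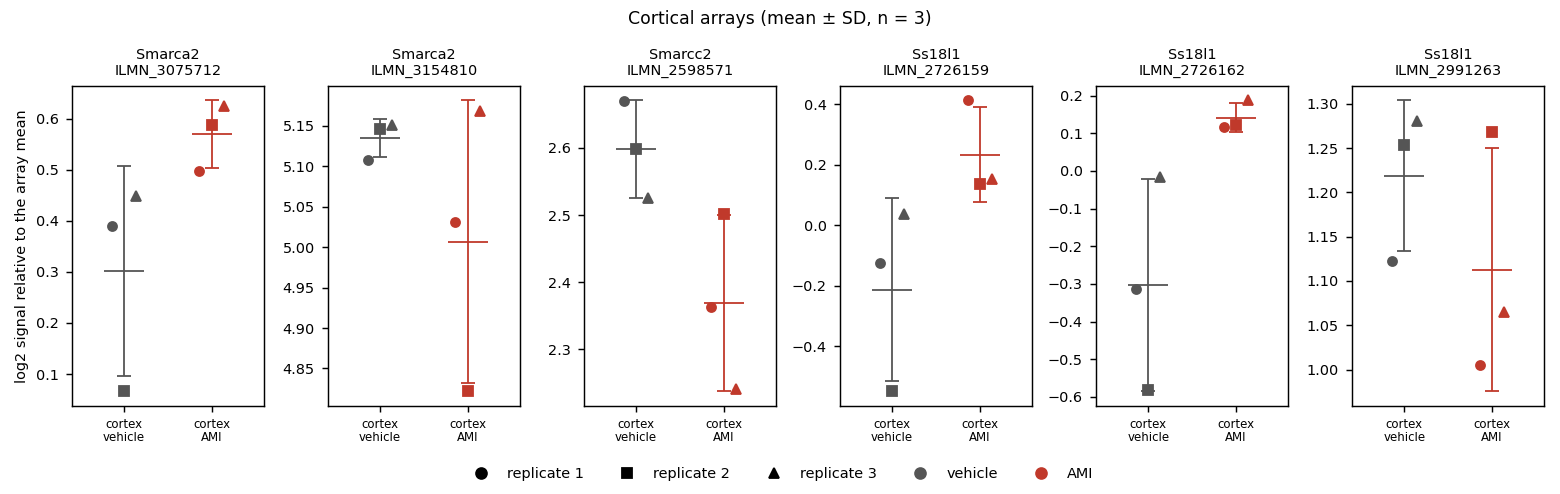
Log2 signal relative to the array mean (vertical axis) on the cortical arrays for the probes of Smarca2, Smarcc2 and Ss18l1, one panel each, with symbols for the replicate number, a line for the mean and bars for the SD of 3 arrays. Smarca2 ILMN_3075712 and the overlapping Ss18l1 probes ILMN_2726159 and ILMN_2726162 are higher in all AMI arrays, Smarcc2 is lower in all AMI arrays, and the other Smarca2 and Ss18l1 probes overlap.

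The subunits were next compared between hippocampus and cortex. The tissues were run as separate tables from different versions of the scanner software, with highest signals of 35958 to 53324 in hippocampus and 24573 to 27400 in cortex, so tissue and run cannot be told apart in this comparison. With all 12 arrays scaled together, 13677 probes were tested by limma at an adjusted p under 0.05, of which 24.4% were higher in hippocampus and 18.7% higher in cortex. Of the members, 2 of 13 were higher in hippocampus and 3 of 13 higher in cortex, counts near those that the shares of the whole array would give.

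The ATPases went opposite ways. Smarca4 read 0.35, 0.62 and 0.70 on the hippocampal AMI arrays, 0.56, 0.71 and 0.78 on the hippocampal vehicle arrays, -0.01, 0.09 and 0.10 on the cortical AMI arrays and 0.13, 0.23 and 0.12 on the cortical vehicle arrays. The tissues did not overlap, and hippocampus was higher by 0.51 (SE 0.07, adjusted p = 1.34e-04 by limma), 1.43-fold. Smarca2 ILMN_3154810 ranged from 4.46 to 5.05 in hippocampus and from 5.11 to 5.48 in cortex, with no overlap, and was 1.60-fold higher in cortex, a log2 difference of -0.68 (SE 0.11, adjusted p = 4.91e-04 by limma). When arrays were centred on their median without scaling the spread, which moved the median of all probes to 0.19, this Smarca2 difference was -0.04, and the call was lost. The isoform-specific Smarca2 probe ILMN_3075712 differed by -0.20 (SE 0.10, adjusted p = 0.131 by limma).

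Among the core subunits, Smarcc1 was lower in hippocampus. ILMN_2641613 read -0.58 to -0.35 on the 6 hippocampal arrays and 0.21 to 0.39 on the 6 cortical arrays. The tissues were far apart against the spread within either, and the difference was -0.74 (SE 0.06, adjusted p = 2.88e-06 by limma), 1.67-fold higher in cortex. With neqc, which subtracts background, the log2 difference was -1.30. In vehicle arrays alone it was -0.74 and in AMI arrays alone -0.75, with adjusted p of 1.35e-04 and 1.38e-04 by limma. The related scaffold subunit Smarcc2 differed by -0.14 (SE 0.07, 95% interval -0.29 to 0.01) and Smarcb1 by 0.17 (SE 0.08, 95% interval -0.01 to 0.35), neither past the threshold. Smarce1 was higher in cortex at ILMN_2610600, by -0.22 (SE 0.08, adjusted p = 0.0484 by limma), but differed by -0.07 (SE 0.08) at ILMN_2880246, which shares 12 of its bases. With the replicate number and treatment as a block across tissues, the adjusted p of the former was 0.0538.

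Of the actin-related subunits, Actl6a was higher in hippocampus by 0.22 (SE 0.08, adjusted p = 0.0340 by limma), although the tissues overlapped, with arrays from 0.04 to 0.35 in hippocampus and from -0.17 to 0.21 in cortex. With the same block its adjusted p was 0.0652. None of the Actl6b probes was called between tissues: the differences were -0.07, 0.08, -0.28 and -0.02 in 5′ to 3′ order, with SEs of 0.09, 0.10, 0.18 and 0.22. The 95% interval at ILMN_2696182 ran from -0.50 to 0.45. Without cortical vehicle array 3, ILMN_2985428 was -0.47 with an adjusted p of 0.00580 by limma, higher in cortex.

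**Figure D4:**
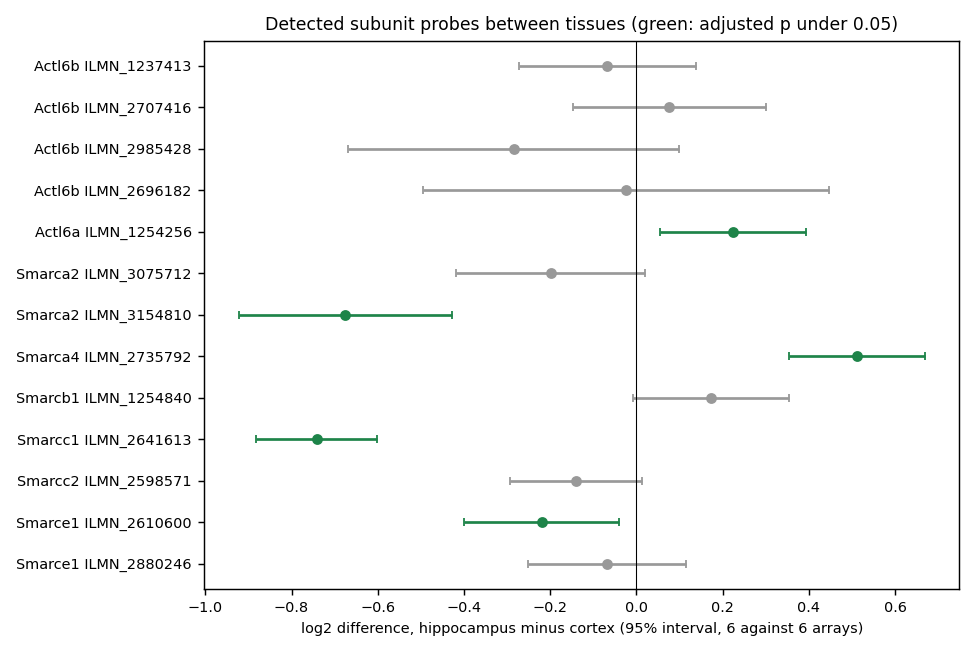
Log2 difference of hippocampus minus cortex (horizontal axis) for the 13 detected probes with 95% intervals, 6 against 6 arrays, green where the adjusted p by limma was under 0.05. Smarca4 (0.51) and Actl6a (0.22) lie to the right, Smarcc1 (-0.74), Smarca2 ILMN_3154810 (-0.68) and Smarce1 ILMN_2610600 (-0.22) to the left, and all 4 Actl6b intervals cross 0.

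Of the 26 probes of other subunits tested between tissues, 13 were higher in hippocampus (24.4% of all probes), 2 higher in cortex (18.7%) and 11 not called. The count of 13 is not used as support for a direction, since tissue and run cannot be told apart and some genes gave several probes. It holds 3 Smarcd1 probes that passed the detection filter through the hippocampus alone, with detection on 5 or 6 of 6 hippocampal and 0 or 1 of 6 cortical arrays. Their differences are taken against background and are not given. The rest of the 13 passed the filter in both tissues. Both that were higher in cortex were the overlapping Ss18l1 probes. ILMN_2726159, detected on 4 of 6 hippocampal arrays, differed by -0.68, while ILMN_2726162 was detected on 2 of 6 there, passed through the cortex alone and is likewise given no difference. The third Ss18l1 probe differed by 0.09. Higher in hippocampus by 0.5 or more, beside Smarcd1, were Arid2 (0.76), Pbrm1 at ILMN_2667709 (0.55), Brd9 at ILMN_2913089 (0.61), Ss18 at ILMN_1233813 (0.69), Bcl11b (0.56) and Actb at ILMN_2617433 (0.76). Arid2, Pbrm1 and Brd9 belong to variant forms of the complex, and Bcl11b is a zinc-finger subunit of neurons and lymphocytes. Several of these genes had another probe with a smaller difference, such as 0.09 at the other detected Ss18 probe and 0.18 at the other Brd9 probe. The Actb probes did not go one way. ILMN_2588055 and ILMN_2846865 were lower in hippocampus, by -0.78 and -0.76, neither called (adjusted p = 0.142 and 0.171 by limma). Actb ILMN_1377923 and ILMN_2698799 differed by 0.39 and 0.45.

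Over the 12 arrays, after subtraction of each tissue's mean, the 5 genes whose probes were most like Actl6b ILMN_2696182 among 10976 probes were Slc1a1 (Pearson r 0.96), which encodes a neuronal glutamate transporter, Rgs10 (0.95), a regulator of G-protein signalling, 2610020C11Rik (0.91), Taf6 (0.90), a subunit of the general transcription factor TFIID, and LOC668837 (0.90). These are descriptions over arrays that share scaling. Slc1a1 read 3.83, 3.91 and 3.81 in the hippocampal AMI arrays, 3.59, 3.50 and 3.57 in the hippocampal vehicle arrays, 3.04, 3.32 and 3.25 in the cortical AMI arrays and 3.36, 3.34 and 2.92 in the cortical vehicle arrays. Like ILMN_2696182 it was lowest in cortical vehicle array 3 and AMI array 1 among the cortical arrays, a likeness that its choice by r over these same arrays brings with it. The members of other genes had r of -0.47 (Smarcb1) to 0.51 (Smarce1 ILMN_2880246) with ILMN_2696182 among detected probes, and the other Actl6b probes 0.54 to 0.82.

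**Figure D5:**
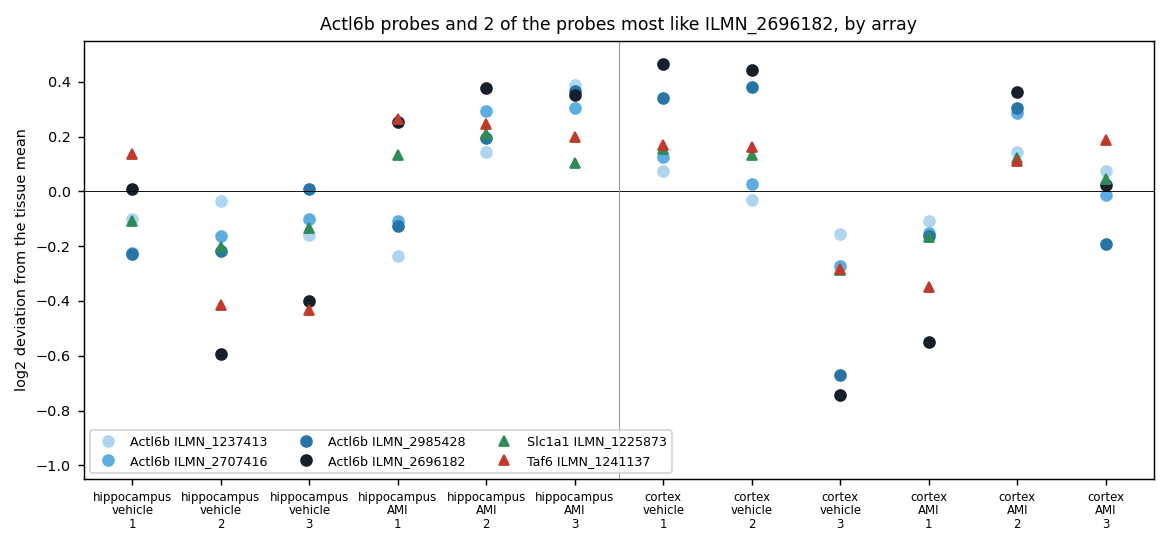
Log2 deviation of each array from the mean of its tissue (vertical axis) for the 4 Actl6b probes (circles), Slc1a1 and Taf6 (triangles) on the 12 arrays. Cortical vehicle array 3 and AMI array 1 are low for all of them. On these scaled signals hippocampal AMI array 1 is high for ILMN_2696182, Slc1a1 and Taf6 and low for the other 3 Actl6b probes. Its raw signal at ILMN_2696182, 593, was the lowest of the hippocampal arrays, so its place there depends on the scaling.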

How the data were processed

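Expression was measured on Illumina MouseRef-8 arrays of hippocampus and cortex. The authors deposited linear bead intensities that, per the file headers, were neither normalized nor background-subtracted. Beside each intensity the deposited tables hold the scanner software's detection p-value. The tissues were exported as separate tables. No depth applies to arrays, and precision is limited by their number. The fold changes are those of signals that still hold background, which understates changes of dim probes.

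Log2 intensities were centred on the mean of each array and divided by its SD (z normalization, after the study's methods), then multiplied by the mean SD, per tissue for AMI against vehicle and over 12 arrays between tissues. A probe was tested when 3 or more arrays of that tissue (of either tissue, for tissues compared) had detected it at 0.05 or less, using limma 3.58.1 in R 4.3.3 (lmFit, eBayes), two-sided, with Benjamini-Hochberg adjustment over all tested probes. Alternatives were quantile normalization, median centring, neqc, other detection filters, trended and robust variances, replicate blocks, joint fits, single treatments, the methods' t-test and cutoffs, and omission of single arrays. Samples were grouped by their titles. With 3 against 3 arrays an exact permutation test of single values cannot go below p = 0.1. The fits were tested on simulated data.

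The r in this paragraph are between the arrays' deviations from probe means, not between signal levels. Same-numbered arrays of both treatments had r of 0.61, 0.30 and 0.29 in hippocampus over 13163 probes, and of -0.06, 0.33 and 0.33 in cortex. The tissues thus differed at replicate 1 alone, whose hippocampal arrays both had a small spread of log2 signals. Whether replicate numbers pair samples in either tissue is not settled by these values. Same-numbered arrays of a treatment in both tissues had r of -0.33 to 0.08. The members, the list of other subunits and the marker lists were chosen with earlier results of these data known. Named are all member probes, of the other subunits the neuronal alternatives and those past an unadjusted p of 0.05 in cortex or a called tissue difference of 0.5 or more, and the 5 most alike genes. Probe sequences and coordinates are from the deposited annotation. All 9 symbols and 15 accessions matched RefSeq's table.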

Additional observations from a re-analysis of the deposited data

How the results depend on the processing

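Smarca4 and Smarcc1 kept their calls between tissues under every alternative run, and Smarca2 ILMN_3154810 lost its call with median centring only. Hippocampal member differences moved by less than each probe's own SD between replicates under all alternatives; near 0, Smarca2 ILMN_3154810 (-0.27 to 0.084), Smarcc2 (-0.069 to 0.059) and Smarce1 ILMN_2610600 (-0.023 to 0.19) changed sign leaving out arrays, and the first 2 reached 0.087 and 0.077 under other settings. With 3 arrays a group, and the 2 undetected probes near background, small changes could not be seen. In the cortex, adjusted calls over the array were 2 with neqc, 2 with trend and robust variances, 3 by the cutoffs of the study, and 0 to 1 leaving out each array; the unadjusted count was 433 with median centring, 1519 with no detection filter, and 375 to 1960 leaving out each array. Unadjusted calls split into 564 higher and 249 lower, into 408 and 448 with quantile normalization and into 393 and 40 with median centring. Member probes at an unadjusted p of 0.05 or less numbered 1 with quantile normalization and with both tissues in one fit, 0 with median centring, neqc, the stricter detection filter, trend and robust variances and the methods' t-test, and 0 to 4 leaving out each array. With median centring the cortical differences of Actl6b ILMN_2985428 (0.027), Smarca2 ILMN_3154810 (0.029), Smarcb1 (0.042) and Smarce1 ILMN_2610600 (0.0071) turned positive. Leaving out each cortical array, values crossed 0 at Actl6b ILMN_2707416 (-0.041 to 0.18), ILMN_2985428 (-0.38 to 0.15) and ILMN_2696182 (-0.52 to 0.14), Actl6a (-0.12 to 0.062), Smarcb1 (-0.14 to 0.077) and Smarce1 ILMN_2880246 (-0.073 to 0.11). The hippocampal unadjusted count was 581 with quantile normalization, 72 with median centring, 626 with neqc, 615 with no detection filter, 1063 with the replicate block, and 185 to 960 leaving out each array, where adjusted calls were 0 to 1. The block changed no call of a member in the cortex, with 2 member probes at an unadjusted p of 0.05 or less. Between tissues, 3433 probes were called in vehicle arrays alone and 3694 in AMI arrays alone, and median centring moved the split from 3332 higher in hippocampus and 2559 lower to 4644 and 838. Members called numbered 3 in vehicle arrays alone, in AMI arrays alone and with the replicate block across tissues, and 3 to 6 leaving out each array. With median centring Actl6b ILMN_2696182 (0.31), Smarcc2 (0.22), Smarce1 ILMN_2610600 (0.057) and ILMN_2880246 (0.23) turned higher in hippocampus, while the median of all probes moved from 0.03 to 0.19; Actl6b ILMN_2707416 was -0.035 in vehicle arrays alone and ILMN_2696182 0.35 in AMI arrays alone. Leaving out each array, ILMN_1237413 ran from -0.13 to 0.012 and ILMN_2696182 from -0.24 to 0.087. The causes of these shifts were not tested.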

Other observations

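Taf6, one of the genes most like Actl6b ILMN_2696182, lies on the same chromosome band, 5qG2, 611 kb from the Actl6b splice-junction probe in the array annotation. Its probe ILMN_1241137 read 0.40, 0.39 and 0.34 in the hippocampal AMI arrays and 0.28, -0.27 and -0.29 in the vehicle arrays, and was low in cortical AMI array 1 (-0.62) and vehicle array 3 (-0.56) against -0.16 to -0.08 in the other 4. The second Taf6 probe, ILMN_1252302, had r of 0.32 with ILMN_2696182. A look at the neighbours, chosen after these values were seen, took 34 probes of 25 other genes within 1 Mb on each side: their r with ILMN_2696182 ran from -0.79 to 0.90 with a median of 0.07, and 1 of them, that of Taf6, was above 0.7, against 1.98% of all probes compared.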
